A study of Anguilla anguilla with 12 samples.

Results

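The genes described here are the writers, erasers and remodellers of chromatin in the European eel, measured in oocytes before and in eggs after injection of the female with progesterone (P) or with DHP, the fish maturation steroid 17α,20β-dihydroxy-4-pregnen-3-one. They were chosen by name: the genes suv39h1a, LOC118231133, chd9 and LOC118224789, and every gene whose annotated product names a lysine methyltransferase or demethylase, a histone deacetylase or acetyltransferase, a DNA methyltransferase, a chromodomain helicase, SWI/SNF, a bromodomain or polycomb. This gave 131 of the 31061 genes in the count tables, and 130 of them were counted at least once. The rule uses names only, but the members, including the 4 genes named singly, were chosen with earlier results of these data known.

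Transcripts with poly(A) tails were sequenced in 4 groups of 3 libraries each: eggs stripped from the female after P, oocytes taken with a cannula before P, eggs stripped after DHP and oocytes taken before DHP. All females were wild type eels that had been feminized with estradiol, treated with steroid implants and matured artificially, and both steroids were injected at the same dose per body weight. DHP is made from P in the ovary: it carries 1 more hydroxyl group and has a hydroxyl group in place of a ketone. Library numbers are those of the count tables. Eggs after P were libraries 2, 6 and 10 and oocytes before P libraries 1, 5 and 9, whereas eggs after DHP were libraries 4, 8 and 12 and oocytes before DHP libraries 3, 7 and 11, and values of a group follow that order.

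Chromatin writers add acetyl, methyl or other groups to histones or DNA, erasers take them off, readers such as bromodomain proteins bind them, and remodellers use ATP to move or open nucleosomes. Acetylation by histone acetyltransferases and methylation by SET1 and MLL type enzymes mark active genes, whereas SUV39H, SETDB1 and polycomb enzymes mark silent ones. The fish oocyte stores transcripts and proteins that the embryo uses until its own genome is switched on, and chromatin proteins belong to this maternal stock.

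The members fell into 11 role classes by their products: 12 lysine methyltransferases of histones and their cofactors, 10 lysine demethylases, 9 histone acetyltransferases, 17 histone deacetylases and subunits of their complexes, 24 bromodomain genes, 18 genes named for SWI/SNF, 9 chromodomain helicases (CHD), 18 polycomb-named genes, 1 UHRF1-like gene, 4 genes named for a DNA methyltransferase and 9 lysine methyltransferases of other substrates. The names did not always fit the label. Of the genes named for a DNA methyltransferase, none encodes a cytosine DNA methyltransferase: dmap1 and LOC118230859 encode a partner of DNMT1, mgmt a DNA repair enzyme and n6amt1 another methyltransferase. The enhancer of polycomb genes (epc) encode subunits of the NuA4 acetyltransferase complex, and the methyltransferases of other substrates modify proteins such as elongation factors and citrate synthase.

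Libraries held 6612347 to 9903122 counted fragments. Members took 1.03% to 1.05% of the fragments in eggs after P, against 0.590% to 0.768% in oocytes before P, and 0.910% to 1.09% in eggs after DHP, against 0.590% to 0.738% in oocytes before DHP. The oocyte samples held follicle, muscle and blood transcripts. Of 16 follicle markers, 10 were called lower and 1 higher after P and 7 lower and 0 higher after DHP, and fshr, lhcgr, star, foxl2a and inha were at 0 in eggs after P, and the summed level of the list was 1630 to 2663 normalized counts (counts of the 12 libraries put on 1 common depth with TMM) in eggs after P against 10180.1 to 13689 in oocytes before P, and 485 to 1559 in eggs after DHP against 4821 to 9688 in oocytes before DHP. The 1 follicle marker called higher after P, the 3 beta-hydroxysteroid dehydrogenase-like LOC118214003, averaged 1997 normalized counts in eggs after P and 725 in oocytes before P, and so made up most of the egg sum, and 789 in eggs after DHP and 454 in oocytes before DHP, where it was not called. The summed level of 8 smooth muscle markers was 4.88 to 40.3 in eggs after P against 1312 to 3516 in oocytes before P, and 11.9 to 162 in eggs after DHP against 1233 to 6513 in oocytes before DHP. Blood and immune markers (11 genes) summed to 93.9 to 554 in eggs after P against 298 to 1269 in oocytes before P, and 125 to 637 in eggs after DHP against 696 to 1369 in oocytes before DHP. The 31 oocyte and egg markers summed to 9301 to 12302 in eggs after P against 25169 to 28158 in oocytes before P, with 19 called lower and 1 higher, and to 9854 to 15758 in eggs after DHP against 21004 to 35925 in oocytes before DHP, with 10 called lower and 1 higher. In such bulk samples, fewer cells of a type cannot be told apart from less RNA per cell. The part of these cells in the members' changes was not tested. Nor can more or less transcript be told apart from a longer or shorter poly(A) tail.

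Oocyte library 3 stood apart from the other libraries of oocytes before DHP. Of the 42 members that were higher in eggs after P, a set chosen on other libraries, 34 had their highest level among oocytes before DHP in library 3 and 0 had their lowest. Values after DHP are therefore also given without library 3 where that moved a fold by over 1.5 times. Oocytes before P differed among themselves too. Of the 24 members higher in eggs after DHP, 14 had their highest level among oocytes before P in library 5 and 4 their lowest. The median log2 level over the other libraries of the group was 0.62 for library 5 in this set, and 0.50 for library 3 in the set of 42.

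With TMM scaling, which takes most genes as unchanged, more chromatin genes were higher than lower in eggs under both steroids, but with total counts as the scale fewer were. After P, 42 of the 121 members tested were higher and 15 were lower than in oocytes before P. After DHP, 24 of the 119 members tested were higher and 6 were lower than in oocytes before DHP. Called here means an adjusted p under 0.01 from edgeR's quasi-likelihood test, with Benjamini-Hochberg adjustment over all genes tested. Over all genes, 17.9% were called higher and 22.7% lower after P, and 7.35% were called higher and 6.22% lower after DHP.

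The median log2 fold change of the members was 0.64 after P, against -0.26 over all genes tested, and 0.48 after DHP, against -0.20 over all genes tested. With total counts as the scale the median of all genes was -1.01 after P and -0.80 after DHP, and that of the members was -0.09 and -0.11, so their distance from all genes was 0.91 with total counts and 0.90 with TMM after P, and 0.69 and 0.67 after DHP. Members called higher then numbered 22, and those called lower 30, after P, and 6 and 10 after DHP. Over all genes tested, 8.44% were then called higher and 33.9% lower after P, and 3.23% and 13.9% after DHP. Class counts with total counts below are to be read beside these shares. The share of higher among called members was 42.3% with total counts and 73.7% with TMM after P, and 37.5% and 80.0% after DHP. All 42 and 24 members called higher with TMM kept a positive log2 fold change with total counts. Their smallest change with TMM was 0.80 after P and 1.58 after DHP. A change of scale moves all genes of a comparison by nearly the same amount. The kept signs and the like distances from all genes are therefore no separate test of the rises.

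The groups did not overlap for 85 of 121 members tested after P, or 70.2%, against 64.8% of all genes tested, and for 82 of 119 members after DHP, or 68.9%, against 50.7% of all genes tested. Members called higher had log2 fold changes of 0.80 to 9.20 after P and 1.58 to 4.62 after DHP, and members called lower had -5.44 to -1.52 after P and -5.02 to -1.86 after DHP. The calls after DHP were fragile in fits with 1 library left out. Such fits hold fewer samples, and the share of all genes they called is not given here. The fragility may therefore not be particular to the members. Without library 7 the fit called 0 higher and 0 lower, without library 12 it called 0 and 1, without library 11 it called 1 and 1, without library 4 it called 7 and 1, without library 8 it called 18 and 2, and without library 3 it called 19 and 3. After P, leaving out a library gave 27 to 36 higher and 9 to 11 lower, with 27 higher without library 1 and 9 lower without library 5 or 6. None of the 30 members called after DHP was called in every fit with 1 library left out, against 34 of 57 after P, while all 30 and all 57 kept their direction. For the calls after DHP named below this limit holds throughout. With the libraries of a female paired, 47 members were higher and 23 lower after P, and 25 were higher and 7 lower after DHP. The paired fits called 22.02% of all genes higher and 26.6% lower after P, and 9.12% higher and 8.92% lower after DHP. All of these shares were above those without pairing, so calls rose over all genes too.

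**Figure D1:**
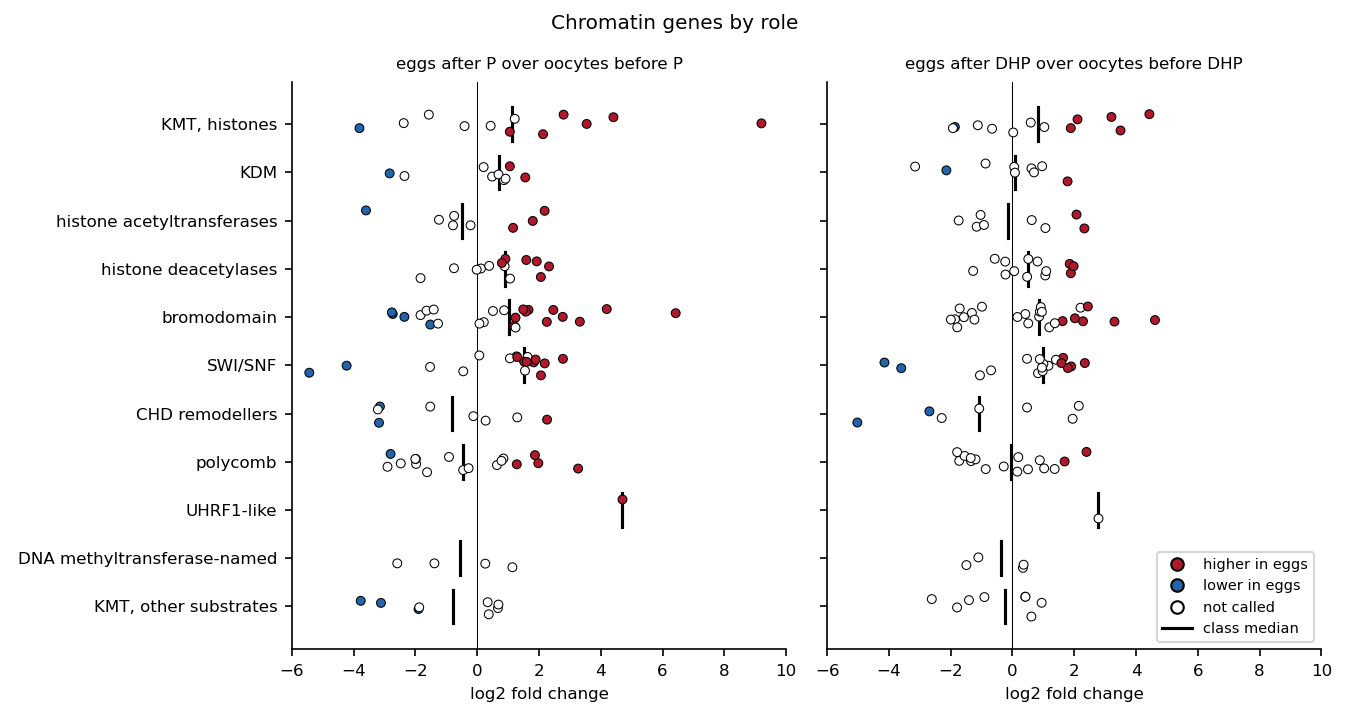
Log2 fold change of each tested member by role class, eggs after P over oocytes before P on the left and eggs after DHP over oocytes before DHP on the right. Each point is a gene (KMT, lysine methyltransferase, and KDM, lysine demethylase), filled red where called higher and blue where called lower in eggs, and the bar is the class median. With TMM scaling red points lead among the histone methyltransferases, deacetylases, bromodomain and SWI/SNF genes, and the lysine methyltransferases of other substrates have blue points but no red ones.

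The histone lysine methyltransferases caught by the rule held some of the steepest changes. Of 12 members tested, 6 were higher and 1 lower in eggs after P, and 5 were higher and 1 lower in eggs after DHP, with class medians of 1.13 and 0.81. With total counts 4 were higher and 2 lower after P, and 3 were higher and 2 lower after DHP. The enzyme SUV39H1 trimethylates lysine 9 of histone H3 in silent heterochromatin, and its gene suv39h1a lies on chromosome 11 from 37834624 to 37844251 of the genome build fAngAng1.pri. The gene had 251, 421 and 481 normalized counts in eggs after P, against 0.783, 0 and 0.937 in oocytes before P. Its poly(A) transcript was thus close to absent from the oocytes before P, with 2 counts over the 3 libraries, against 897 in the eggs. That was a ratio of 728 (95% counting interval 201 to 6021, which covers counting error only). In females given DHP, suv39h1a had 299.8, 492 and 507 normalized counts in eggs after DHP, against 46.3, 3.08 and 6.73 in oocytes before DHP. Eggs lay above oocytes under both steroids, and oocyte library 3 was the highest oocyte library. Its log2 fold change was 9.20 ± 0.67 after P (adjusted p = 1.58e-05) and 4.43 ± 0.89 after DHP (adjusted p = 0.00667), and 6.34 after DHP without library 3 and 8.54 after P without library 5.

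SETD1A is the enzyme, and ASH2L a core subunit, of a complex that methylates lysine 4 of histone H3 at active promoters. Transcripts of setd1a were at 1984, 2456 and 3203 normalized counts in eggs after P, against 100.2, 168 and 84.3 in oocytes before P. In females given DHP they were at 2187, 1540.4 and 2916 normalized counts in eggs after DHP, against 337, 108 and 116 in oocytes before DHP. All eggs held more than all oocytes, with a log2 fold change of 4.41 ± 0.36 after P (adjusted p = 2.25e-05) and 3.50 ± 0.53 after DHP (adjusted p = 0.00301). The ash2l gene had 4397, 5169 and 4989 normalized counts in eggs after P, against 479, 373 and 378 in oocytes before P. It had 5136, 3823 and 5436 normalized counts in eggs after DHP, against 882, 333 and 274 in oocytes before DHP. Here too the groups did not overlap, and the oocytes before P varied little around their mean of 410.2 ± 59.7 (SD, n = 3). The log2 fold change of ash2l was 3.54 ± 0.24 after P (adjusted p = 1.45e-05), the smallest p of any member, and 3.21 ± 0.48 after DHP (adjusted p = 0.00290). Without library 3 the values after DHP were 4.28 for setd1a and 3.95 for ash2l. The setd1a gene overlaps another annotated gene, LOC118216610, and as the strand setting of the count is not given, reads of such pairs may be mixed.

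**Figure D2:**
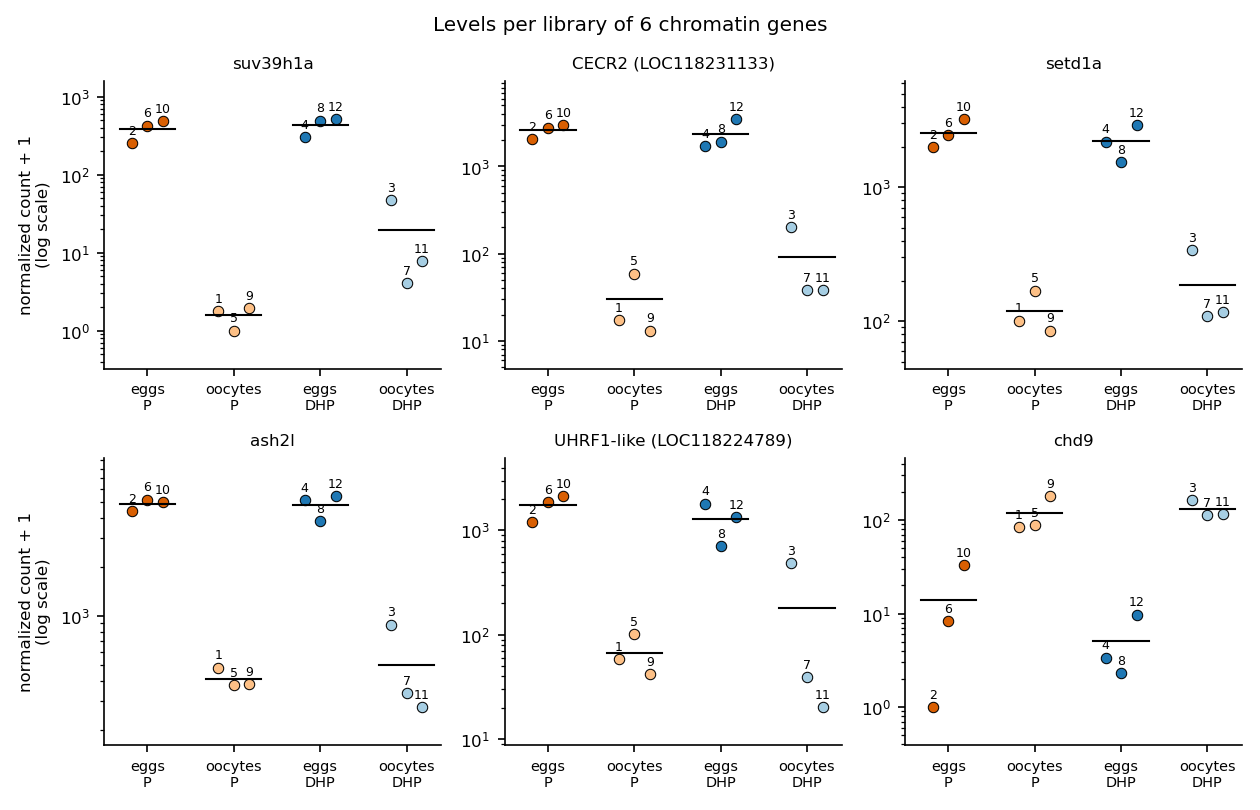
Normalized counts plus 1, on a log scale, of 6 members in each library of eggs and oocytes of both steroids. Points are libraries with their numbers and bars are group means. suv39h1a, CECR2, setd1a, ash2l and the UHRF1-like gene lie higher in all egg libraries than in all oocyte libraries of the same steroid, chd9 lies lower, and library 3 is the highest of the oocytes before DHP in all 6 panels.

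The KMT5 genes, whose enzymes methylate lysine 20 of histone H4, moved in opposite directions. KMT5A adds the first methyl group, and KMT5B and KMT5C add further ones. The kmt5aa gene had 4011, 3121 and 3589.9 normalized counts in eggs after P, against 600.3, 656 and 265 in oocytes before P. In females given DHP it had 2648, 3057 and 3073 normalized counts in eggs after DHP, against 1074, 533 and 335 in oocytes before DHP. Its paralog kmt5ab averaged 1803 ± 414 in eggs after P and 855 ± 30.8 in oocytes before P (SD, n = 3 each). Eggs were above oocytes for both copies, with log2 fold changes of 2.80 ± 0.35 for kmt5aa and 1.06 ± 0.25 for kmt5ab after P (adjusted p = 0.000165 and 0.00475), the call of kmt5ab being lost without library 1, 5, 9 or 10 (adjusted p up to 0.0231). After DHP kmt5aa was called (2.11 ± 0.43, adjusted p = 0.00698, or 2.71 without library 3) and kmt5ab was not (1.03 ± 0.39, adjusted p = 0.0663).

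In contrast, kmt5c had 107, 85.3 and 57.6 normalized counts in eggs after P, against 1035, 1607 and 835 in oocytes before P. It had 415, 268 and 169 normalized counts in eggs after DHP, against 853, 982 and 1100.4 in oocytes before DHP. All eggs were below all oocytes, and the eggs after P were below the eggs after DHP. The log2 fold change of kmt5c was -3.81 ± 0.38 after P (adjusted p = 5.00e-05) and -1.86 ± 0.40 after DHP (adjusted p = 0.00824). The gene lies on chromosome 17 from 16378351 to 16415505 and overlaps hspbp1. The rarer kmt5b had values of -1.57 ± 0.73 and -1.12 ± 0.77 and was not called (adjusted p = 0.0927 and 0.285). Without library 10 it was at -2.48 after P, and without library 4 at -2.39 after DHP. A KMT5B-B-like gene that the rule does not catch, LOC118228085, was called lower after P, at -3.68 ± 0.72 (adjusted p = 0.00184). It averaged 4.89 normalized counts in eggs after P and 61.4 in oocytes before P. After DHP it was at -2.48 ± 0.75 and was not called (adjusted p = 0.0307).

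Among the others of this class, setdb1b, which encodes a lysine 9 methyltransferase of histone H3, averaged 760.1 ± 298 in eggs after P and 170.4 ± 85.7 in oocytes before P, and 670.02 ± 108 in eggs after DHP and 172 ± 40.2 in oocytes before DHP (SD, n = 3 each). Its log2 fold change was 2.13 ± 0.43 after P (adjusted p = 0.00209) and 1.89 ± 0.37 after DHP (adjusted p = 0.00585), and the call after P was lost without library 1 or 9 (adjusted p up to 0.0131). The genes setd2, setd7, setdb2 and mllt10 were not called, with log2 fold changes of -2.38 to 1.21 after P, though setd7 passed after P with the libraries paired (adjusted p = 0.00259).

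**Figure D3:**
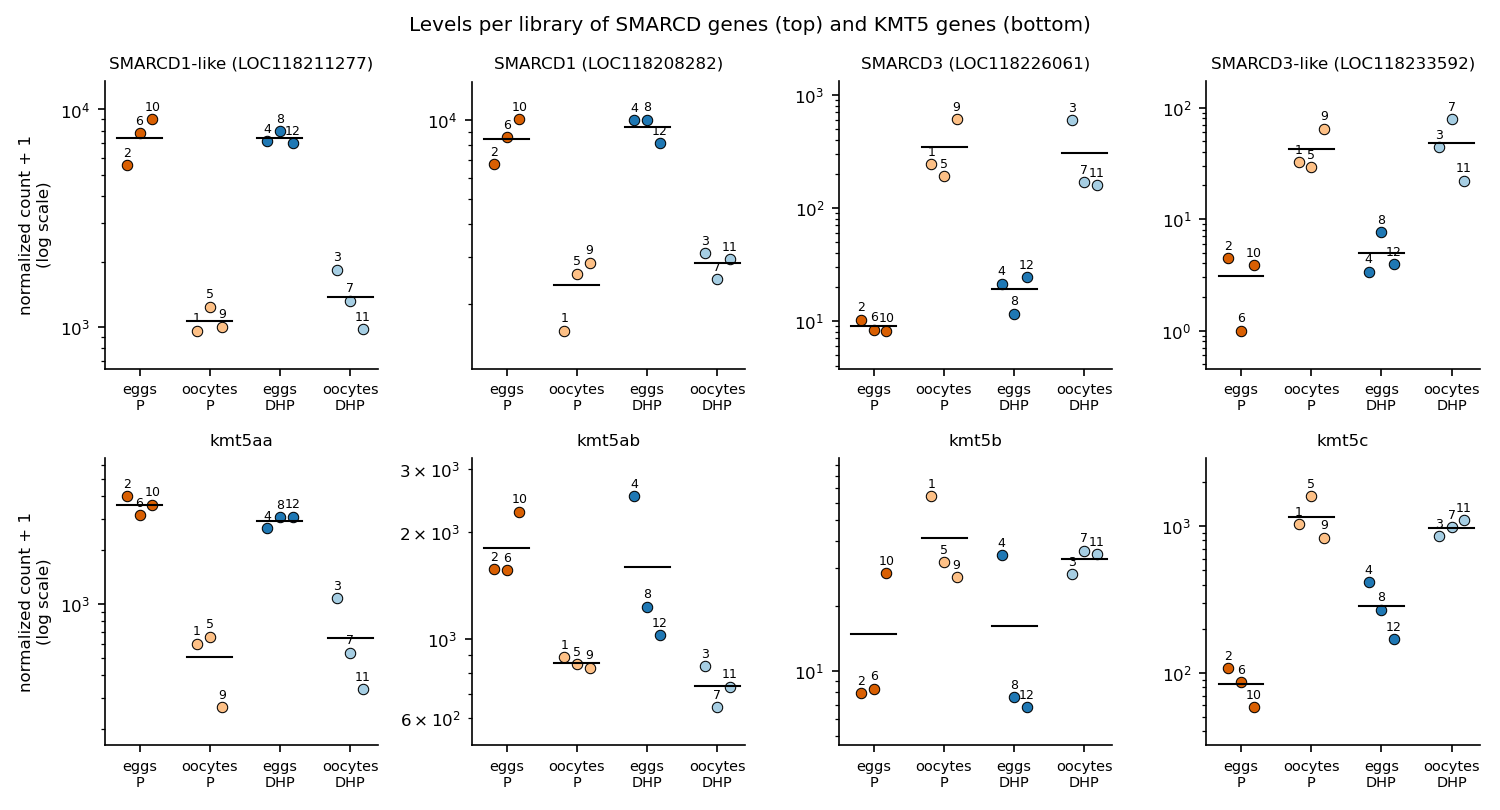
Normalized counts plus 1, on a log scale, of 4 SMARCD genes in the top row and 4 KMT5 genes in the bottom row, per library of eggs and oocytes of both steroids. Points are libraries with their numbers and bars are group means. Both SMARCD1 genes and kmt5aa and kmt5ab lie higher in eggs, whereas both SMARCD3 genes and kmt5c lie lower.

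Most lysine demethylases were not called, with 2 of 9 tested members higher and 1 lower after P and 1 higher and 1 lower after DHP. The class median was 0.69 after P and 0.08 after DHP, and was below 0 for both with total counts (-0.07 and -0.51). On that scale 0 were higher and 1 was lower in each comparison. The 6A-like gene LOC118224327 belongs to the family that removes the polycomb mark from lysine 27 of histone H3. It had 93.2, 69.5 and 90.6 normalized counts in eggs after P, against 520.5, 853 and 409 in oocytes before P. It had 98.7, 109 and 127 normalized counts in eggs after DHP, against 404, 531 and 469 in oocytes before DHP. Eggs were below oocytes in every library, with a log2 fold change of -2.83 ± 0.37 after P (adjusted p = 0.000210) and -2.14 ± 0.38 after DHP (adjusted p = 0.00431). LOC118232023, annotated as RSBN1L-like, had 509, 496 and 725 normalized counts in eggs after P, against 139, 253 and 187 in oocytes before P. Its log2 fold change was 1.56 ± 0.33 after P (adjusted p = 0.00309, up to 0.0161 without library 1, 9 or 10) and 1.79 ± 0.37 after DHP (adjusted p = 0.00712). The demethylase 9-like LOC118208592 passed the threshold after P (1.06 ± 0.28, adjusted p = 0.00864) but in no fit with a library left out (adjusted p up to 0.0353). After DHP it was not called (0.96 ± 0.40, adjusted p = 0.0863). The other 6 tested members, of the 2B, 3B, 4B and 4C families, had log2 fold changes of -2.36 to 0.92 after P and were not called, and the 6B gene, with group means of at most 1.53 normalized counts, was not tested.

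Among histone acetyltransferases, 3 of 8 tested members were higher and 1 lower after P, and 2 were higher and 0 lower after DHP, but with total counts 1 was higher and 4 were lower after P and 0 were called after DHP. KAT7 acetylates histones H3 and H4 and is known for its part in DNA replication licensing. Its gene LOC118216822 had 189.9, 239 and 260.4 normalized counts in eggs after P, against 74.4, 66.2 and 54.3 in oocytes before P. The KAT7-like LOC118220050 had 1317, 1358 and 1243 normalized counts in eggs after P, against 403, 252 and 196 in oocytes before P. Eggs were above oocytes for both copies, which may share reads, and LOC118220050 overlaps LOC118220051. Their log2 fold changes were 1.80 ± 0.36 and 2.18 ± 0.31 after P (adjusted p = 0.00200 and 0.000334), and 2.33 ± 0.48 and 2.07 ± 0.43 after DHP (adjusted p = 0.00745 and 0.00742). The call of LOC118216822 after P was lost without library 9 (adjusted p = 0.0106). The gene hat1, for the enzyme that acetylates new histone H4, averaged 3126 ± 98.3 in eggs after P and 1379 ± 246 in oocytes before P (SD, n = 3 each), with 1.16 ± 0.23 (adjusted p = 0.00189). After DHP its value was 1.07 ± 0.28 and it was not called (adjusted p = 0.0173).

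The KAT6B-like LOC118218064 had 1.15, 3.66 and 1.44 normalized counts in eggs after P, against 24.3, 36.7 and 17.8 in oocytes before P. It was the only acetyltransferase member called lower, with -3.60 ± 0.78 after P (adjusted p = 0.00317), or -4.24 without library 6, and passed only without library 9 when 1 library was left out (adjusted p up to 0.0205). The second KAT6B-like gene, LOC118220702, had -1.24 ± 0.41 after P and was not called (adjusted p = 0.0265) except with the libraries paired (adjusted p = 0.00721).

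Of the histone deacetylases and subunits of their complexes, 6 of 13 tested members were higher after P and 3 of 13 after DHP, and 0 were lower in either comparison. The class medians were 0.89 and 0.51, the median after DHP turning to -0.10 with total counts. On that scale 3 were higher and 1 lower after P, and 1 was higher and 0 were lower after DHP. HDAC1 and HDAC2 are the catalytic subunits of several repressor complexes. The HDAC1-B gene LOC118233348 had 7185, 9578 and 10367 normalized counts in eggs after P, against 2004, 1965 and 1364 in oocytes before P. In females given DHP it had 7781, 9062 and 9425 normalized counts in eggs after DHP, against 2956, 2087 and 1875 in oocytes before DHP. Egg levels exceeded oocyte levels in every library, with log2 fold changes of 2.33 ± 0.26 after P (adjusted p = 9.22e-05) and 1.85 ± 0.29 after DHP (adjusted p = 0.00322). A further HDAC1-like gene, LOC118214206, and the HDAC2 gene LOC118230782 changed less, with 0.91 ± 0.22 and 0.80 ± 0.21 after P (adjusted p = 0.00627 and 0.00931). The call of LOC118214206 held only without library 5, and that of LOC118230782 in no fit with a library left out (adjusted p up to 0.0300 and 0.0312). After DHP these were not called, with 0.51 ± 0.34 and 0.48 ± 0.34 (adjusted p = 0.271 and 0.297).

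HDAC8 is a class I deacetylase that acts on cohesin, and hdac8 had 1333, 1218 and 1576 normalized counts in eggs after P, against 378, 323 and 369 in oocytes before P. It had 1737, 1299.7 and 1351 normalized counts in eggs after DHP, against 351, 396 and 310.4 in oocytes before DHP. Its log2 fold change was 1.93 ± 0.25 after P (adjusted p = 0.000180) and 1.98 ± 0.32 after DHP (adjusted p = 0.00337), and the difference between these changes was -0.11 ± 0.36 with a 95% interval of -0.90 to 0.67. The gene LOC118222560, for the SAP18 subunit of the SIN3 corepressor complex, averaged 3848 ± 987 in eggs after P and 911 ± 373 in oocytes before P (SD, n = 3 each). Its log2 fold change was 2.06 ± 0.33 after P (adjusted p = 0.000656) and 1.89 ± 0.32 after DHP (adjusted p = 0.00396). The class II gene hdac10, which overlaps cfap54, was higher after P (1.59 ± 0.38, adjusted p = 0.00527), a call lost without library 1, 5, 6 or 10 (adjusted p up to 0.0214). The other class II genes (hdac4, hdac5, hdac6 and the HDAC5-, HDAC7- and HDAC9-like genes) were rare, with group means of at most 29.8 normalized counts, and none was called. The hdac3 gene was close to level, with -0.02 ± 0.29 after P and -0.22 ± 0.33 after DHP.

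Of the 24 bromodomain genes, 11 were higher and 4 lower after P, and 6 were higher and 0 lower after DHP, with medians of 1.03 and 0.88. With total counts 6 were higher and 6 lower after P, and 1 was higher and 2 lower after DHP. The gene with the second largest rise of all members after P was LOC118231133, annotated as CECR2 (cat eye syndrome critical region protein 2), a bromodomain partner of ISWI remodellers in mammals, on chromosome 7 from 12946820 to 12982922. It had 2065, 2773 and 2949.7 normalized counts in eggs after P, against 16.4, 58.4 and 12.2 in oocytes before P. In females given DHP, LOC118231133 had 1699, 1918 and 3455 normalized counts in eggs after DHP, against 201, 37.0 and 37.0 in oocytes before DHP. Every egg library lay above every oocyte library, with a gap of several fold also to library 3. Its log2 fold change was 6.43 ± 0.59 after P (adjusted p = 3.52e-05) and 4.62 ± 0.74 after DHP (adjusted p = 0.00341), and 5.95 after DHP without library 3 and 7.42 after P without library 5.

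BET proteins bind acetylated histones and recruit the transcription machinery. The BET genes brd2a, brd3b and the BRD3-like LOC118212631 were called higher after P, with 1.19 to 1.66, and of these LOC118212631 was also called after DHP (1.62 ± 0.35, adjusted p = 0.00871). The brd3b gene had 1405, 1633 and 1345 normalized counts in eggs after P, against 502, 574 and 462 in oocytes before P. All its egg libraries lay above all its oocyte libraries, with a log2 fold change of 1.49 ± 0.24 after P (adjusted p = 0.000620), and it was not called after DHP (0.92 ± 0.34, adjusted p = 0.0613). Leaving out 1 library after P ended the call of LOC118212631 for library 1, 2, 6 or 9 (adjusted p up to 0.0190) and of brd2a for any but library 6 (up to 0.0396). The BET genes brd2b and brdt were not called, but brdt passed after P with the libraries paired (adjusted p = 0.00476).

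Also higher were brd9, whose product belongs to a SWI/SNF variant complex, brd7 (1.24 ± 0.30 after P, adjusted p = 0.00530, held only without library 10 when 1 library was left out), and brwd1 and brwd3, for proteins with bromodomains and WD repeats. The brd9 gene, which overlaps trip13, averaged 1531 ± 395 in eggs after P and 317 ± 110.5 in oocytes before P, and 1394 ± 281 in eggs after DHP and 326 ± 123 in oocytes before DHP (SD, n = 3 each). Log2 fold changes after P and after DHP were 2.25 ± 0.33 and 2.02 ± 0.38 for brd9 (adjusted p = 0.000369 and 0.00523), 2.46 ± 0.35 and 2.29 ± 0.43 for brwd1 (adjusted p = 0.000322 and 0.00524) and 3.32 ± 0.52 and 2.44 ± 0.46 for brwd3 (adjusted p = 0.000516 and 0.00541), which was at 3.97 after P without library 5.

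The BRPF proteins are scaffolds of the MOZ, MORF and HBO1 acetyltransferases, and their genes split by paralog. The BRD1-like LOC118219377, from the same family (BRD1 is also called BRPF2), had 218, 185 and 298 normalized counts in eggs after P, against 28.2, 35.4 and 37.5 in oocytes before P. The brpf1 gene had 76.0, 52.4 and 40.3 normalized counts in eggs after P, against 258, 465 and 389 in oocytes before P. For brpf3b the values were 33.4, 25.6 and 20.1 normalized counts in eggs after P, against 121, 269 and 143 in oocytes before P. The first was thus above, and the other genes below, their oocyte levels in every library, with log2 fold changes after P of 2.77 ± 0.39, -2.73 ± 0.40 and -2.76 ± 0.48 (adjusted p = 0.000320, 0.000379 and 0.000983). After DHP they had 2.20 ± 0.53, -1.71 ± 0.45 and -1.79 ± 0.57 and were not called (adjusted p = 0.0134, 0.0181 and 0.0378), but brpf1 passed with the libraries paired (adjusted p = 0.00915). The other members called lower after P were the BAZ2B-like LOC118214560 (-2.36 ± 0.50, adjusted p = 0.00295, up to 0.0119 without library 2, 5 or 6) and the brd8 gene LOC118222452 (-1.52 ± 0.38, adjusted p = 0.00719, up to 0.0330 without library 5, 6, 9 or 10). A second brd8 copy, LOC118236004, had 0.51 ± 0.42 and was not called.

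Of the 17 SWI/SNF-named genes tested, 8 were higher and 2 lower after P, and 5 were higher and 2 lower after DHP, with medians of 1.52 and 0.98. With total counts 4 were higher and 3 lower after P, and 1 was higher and 2 lower after DHP. The name covers subunits of the SWI/SNF (BAF) complex and other ATPases of the same superfamily, such as smarca1 and smarca5 of the ISWI family. SMARCD proteins are alternative subunits of the BAF complex, known from mammals to differ between cell types, and their genes went opposite ways. The SMARCD1-like LOC118211277 had 5529.9, 7763 and 8994 normalized counts in eggs after P, against 963, 1241 and 1001 in oocytes before P. In females given DHP it had 7141, 7936 and 7010.5 normalized counts in eggs after DHP, against 1836, 1321 and 980.1 in oocytes before DHP. The SMARCD1 gene LOC118208282 averaged 8455 ± 1617 in eggs after P and 2344 ± 676 in oocytes before P, and 9358 ± 1054 in eggs after DHP and 2844 ± 329.8 in oocytes before DHP (SD, n = 3 each). Both were higher in every egg library than in any oocyte library of the same steroid. Their log2 fold changes were 2.78 ± 0.27 and 1.83 ± 0.29 after P (adjusted p = 4.14e-05 and 0.000545) and 2.34 ± 0.31 and 1.64 ± 0.26 after DHP (adjusted p = 0.00203 and 0.00337).

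The SMARCD3 gene LOC118226061, whose mammalian counterpart is known from heart and muscle, had 9.21, 7.31 and 7.19 normalized counts in eggs after P, against 241, 189 and 602 in oocytes before P. It had 20.2, 10.5 and 23.3 normalized counts in eggs after DHP, against 594, 167 and 157 in oocytes before DHP. The SMARCD3-like LOC118233592 averaged 2.11 ± 1.85 in eggs after P and 41.1 ± 19.7 in oocytes before P, and 3.96 ± 2.28 in eggs after DHP and 47.1 ± 28.2 in oocytes before DHP (SD, n = 3 each). Eggs lay below oocytes in every library for both genes. Their log2 fold changes were -5.44 ± 0.59 and -4.23 ± 0.91 after P (adjusted p = 7.55e-05 and 0.00318) and -4.14 ± 0.70 and -3.60 ± 0.80 after DHP (adjusted p = 0.00395 and 0.00939). Without library 9 or 10 the call of LOC118233592 after P was lost (adjusted p up to 0.0179), and without library 6 its value was -3.64. For LOC118226061 the value was -4.79 after P without library 9 and -3.18 after DHP without library 3. Oocyte libraries 3 and 9 held the most LOC118226061 of their groups, and they also held the most smooth muscle transcript of their groups, at 6513 and 3516 summed normalized counts. Of the other oocytes before P, library 1 held less smooth muscle transcript than library 5 (1312 against 2764) but more LOC118226061 (241 against 189). Of the other oocytes before DHP, library 7 held more than library 11 of both (1786 against 1233, and 167 against 157). The part of muscle cells in the fall of LOC118226061 was not tested. The smarcd2 gene had 1.55 ± 0.52 after P and was not called (adjusted p = 0.0293).

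Among the ATPases, smarca4a (BRG1), the motor of the BAF complex, had 7843, 9639.9 and 10789.99 normalized counts in eggs after P, against 1390.1, 2724 and 2009 in oocytes before P. It had 8932, 7911 and 10104 normalized counts in eggs after DHP, against 2749, 1480.2 and 2626 in oocytes before DHP. Egg levels lay above oocyte levels, with log2 fold changes of 2.18 ± 0.29 after P (adjusted p = 0.000227) and 1.90 ± 0.32 after DHP (adjusted p = 0.00399). Its alternative motor smarca2 (BRM) was at -1.53 ± 0.43 and -1.05 ± 0.46 and was not called (adjusted p = 0.0119 and 0.104), except with the libraries paired after P (adjusted p = 0.00752). The ISWI ATPase gene smarca5, which overlaps frem3, and the BAF subunit gene smarce1 were called under both steroids, with 2.06 ± 0.33 and 1.89 ± 0.36 after P (adjusted p = 0.000609 and 0.00169). The call of smarce1 after P was lost without library 1 (adjusted p = 0.0107). The core subunit genes smarcc1a and smarcc1b and the remodeller smarcad1a were called after P only, with 1.30 to 1.61 after P and 0.96 to 1.17 after DHP. The calls of smarcc1a and smarcc1b were lost without library 1 (and, for smarcc1a, 6 or 9), with an adjusted p up to 0.0129 and 0.0108. The SMARCB1 genes smarcb1b and LOC118206270 were not called, with 1.06 ± 0.29 and -0.45 ± 0.31 after P, though smarcb1b passed with the libraries paired (adjusted p = 0.00302). The smarcc2 gene was close to the limit of detection, with 0 counts in eggs after DHP against 18 in oocytes before DHP, at least 3.97-fold lower when 3 counts over the group are taken for the 0.

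Chromodomain helicases had the lowest class median in both comparisons, at -0.82 after P and -1.07 after DHP. Of 8 tested after P, 1 was higher and 2 were lower, and of 7 tested after DHP, 0 were higher and 2 lower. With total counts 0 were higher and 3 lower after P, and 0 were higher and 2 lower after DHP. The chd9 gene, for a remodeller first described as a coactivator of nuclear receptors, lies on chromosome 5 from 33997390 to 34098742. It had 2.38, 1.32 and 8.75 normalized counts in eggs after DHP, against 163, 111 and 115 in oocytes before DHP. In females given P it had 0, 7.31 and 31.7 normalized counts in eggs after P, against 83.0, 87.2 and 179.9 in oocytes before P. Eggs were below oocytes under both steroids, but eggs after P spread from 0 to 31.7. The log2 fold change was -5.02 ± 0.76 after DHP (adjusted p = 0.00301), or -6.10 without library 12, and chd9 was the 1 member called after DHP and not after P (-3.22 ± 0.99, adjusted p = 0.0191). Without library 10 it was called after P too, at -4.97 (adjusted p = 0.00423), and without library 2 it was at -2.58. Pairing the libraries brought it past the threshold after P as well (adjusted p = 0.00170), and the difference between the steroids in this change was 1.77 ± 1.32 (adjusted p = 1.00).

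The paralogs chd1 and chd2, for remodellers of active genes, went opposite ways. The chd1 gene had 339.5, 149 and 260.4 normalized counts in eggs after P, against 40.7, 78.7 and 33.7 in oocytes before P, and the chd2 gene had 42.6, 12.2 and 24.5 normalized counts in eggs after P, against 219.9, 206 and 289 in oocytes before P. After DHP chd1 had 212, 81.6 and 267 in eggs, against 44.7, 38.0 and 37.9 in oocytes, and chd2 had 16.7, 48.7 and 43.7 in eggs, against 227, 217 and 225 in oocytes. In neither gene did eggs and oocytes overlap. The log2 fold change of chd1 was 2.26 ± 0.48 after P (adjusted p = 0.00287, up to 0.0174 without library 1, 2 or 9) and 2.15 ± 0.56 after DHP, where it missed the threshold (adjusted p = 0.0173). That of chd2 was -3.18 ± 0.50 after P (adjusted p = 0.000579) and -2.69 ± 0.53 after DHP (adjusted p = 0.00620). The chd1l gene was lower after P (-3.15 ± 0.69, adjusted p = 0.00331), but of the fits with 1 library left out only that without library 9 kept the call (adjusted p up to 0.0169). The NuRD remodeller gene chd4b had 0.27 ± 0.22 after P and 0.47 ± 0.31 after DHP, was not called, and turned negative with total counts (-0.47 and -0.14).

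Polycomb-named genes had 4 members higher and 1 lower of 17 tested after P, and 2 higher and 0 lower of 16 after DHP, with medians of -0.46 after P and -0.06 after DHP, which turned to 0.03 after DHP with RLE scaling. With total counts 3 were higher and 6 lower after P, and 0 were called after DHP. PCGF proteins define the variants of polycomb repressive complex 1. The pcgf6 gene had 1182, 1571 and 1899 normalized counts in eggs after P, against 366, 441 and 448 in oocytes before P, and the pcgf1 gene had 112, 130.4 and 84.9 normalized counts in eggs after P, against 924, 603 and 731 in oocytes before P. In eggs after DHP pcgf6 had 1071, 1535 and 1233, against 450.2, 311 and 367 in oocytes before DHP, and pcgf1 had 20.2, 319.7 and 156, against 341, 666 and 613. The groups did not overlap for either gene, but eggs after DHP spread widely for pcgf1, with library 4 far below the others. The log2 fold change of pcgf6 was 1.87 ± 0.27 after P (adjusted p = 0.000334) and 1.69 ± 0.33 after DHP (adjusted p = 0.00607). That of pcgf1, which overlaps LOC118232218, was -2.81 ± 0.32 after P (adjusted p = 0.000103), and it was not called after DHP (-1.79 ± 0.76, adjusted p = 0.0966, and -2.65 without library 8).

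The SCMH1 gene LOC118213105, for a further polycomb protein, averaged 231 ± 67.3 in eggs after P and 23.3 ± 16.5 in oocytes before P (SD, n = 3 each), with 3.27 ± 0.59 after P (adjusted p = 0.00117), or 3.91 without library 5, and 2.40 ± 0.50 after DHP (adjusted p = 0.00735). BMI-1 is another PCGF protein, and of its genes LOC118233788 was called higher after P (1.28 ± 0.24, adjusted p = 0.00131), whereas bmi1a (0.85 ± 0.42) and LOC118216530 (-1.98 ± 0.54) were not. The epc2 gene was higher after P (1.98 ± 0.29, adjusted p = 0.000355) and not called after DHP (1.37 ± 0.40, adjusted p = 0.0274). Of the subunits of polycomb repressive complex 2, which methylates lysine 27 of histone H3, suz12b (-0.28 ± 0.29) and the SUZ12-like LOC118216821 (-1.62 ± 0.48) were not called after P (adjusted p = 0.435 and 0.0159), though LOC118216821 passed with the libraries paired (adjusted p = 0.00883), and ezh1 was too rare to be tested.

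UHRF1 binds hemimethylated DNA and brings the maintenance methyltransferase DNMT1 to it. The UHRF1-like gene LOC118224789, on chromosome 4 from 3384577 to 3400668, had 1203, 1858 and 2137 normalized counts in eggs after P, against 57.1, 101 and 41.2 in oocytes before P. In females given DHP it had 1801, 704 and 1332 normalized counts in eggs after DHP, against 483, 38.0 and 19.4 in oocytes before DHP. All eggs lay above all oocytes, but oocyte library 3 stood far above libraries 7 and 11. The log2 fold change was 4.67 ± 0.42 after P (adjusted p = 3.10e-05). After DHP it was 2.76 ± 1.02 and missed the threshold (adjusted p = 0.0627), but it was called when the libraries were paired (adjusted p = 0.00886) and when library 3 was left out (5.47, adjusted p = 0.00162). The genes named for a DNA methyltransferase were not called in either comparison, with -2.59 to 1.14 after P and -1.49 to 0.36 after DHP.

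The lysine methyltransferases of other substrates had 0 of 8 tested members higher and 3 lower after P, and 0 called after DHP, with 0 higher and 1 lower with total counts. The EEF1A methyltransferase 3-like LOC118210545 had 35.7, 17.1 and 53.2 normalized counts in eggs after P, against 562, 241 and 622 in oocytes before P. Eggs were below oocytes in every library, with -3.77 ± 0.53 after P (adjusted p = 0.000299). In females given DHP it had 192, 205 and 23.3 normalized counts in eggs after DHP, against 327, 579.8 and 464 in oocytes before DHP, with -1.79 ± 0.67 (adjusted p = 0.0646), and egg library 12 lay far below the other eggs. The genes eef1akmt1, which overlaps ift88, and eef2kmt, which overlaps alg1, had -1.90 ± 0.43 and -3.12 ± 0.81 after P (adjusted p = 0.00414 and 0.00818). Their calls were lost without any 1 library, except for eef2kmt without library 10 (adjusted p up to 0.0155 and 0.0374), and without library 10 eef2kmt was at -4.08. The most abundant member, cskmt, for the enzyme that methylates citrate synthase, was not called (0.37 ± 0.46 after P and 0.42 ± 0.46 after DHP) and turned negative with total counts (-0.35 and -0.21). The gene for the METTL21C-like enzyme had 0 counts in all 12 libraries.

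Chromatin genes that the names above do not catch were taken from 12 further lists with 92 genes. Of these, 24 of 83 tested were higher and 14 lower after P, or 28.9% and 16.9%, against 17.9% and 22.7% of all genes tested. After DHP 13 of 81 were higher and 2 lower, or 16.0% and 2.47%, against 7.35% and 6.22% of all genes tested. These calls are with TMM, and counts of these lists with total counts as the scale are not given here. The largest list, 21 genes named for a histone-lysine N-methyltransferase, had 6 of 18 tested higher and 1 lower after P. After DHP 4 of 19 were higher and 1 lower. Its median log2 fold changes were 0.33 after P and 0.14 after DHP. The cytosine DNA methyltransferase genes had 4 of 5 tested members higher after P, with dnmt1, for the maintenance enzyme, at 2.22 (adjusted p = 0.000253) after P and 1.77 (adjusted p = 0.00330) after DHP. Of the 4 TET genes tested after P, 1 was higher and 2 were lower. The higher gene was tet1, at 1.63 (adjusted p = 0.00714). The TET2-like LOC118231295 was lower, at -3.66 (adjusted p = 0.00696), and tet3 was at -3.34 and not called (adjusted p = 0.0139). The other lower gene, tet2, for an enzyme that oxidizes methylated DNA, had 0 counts in eggs after P against 673 in oocytes before P. That was at least 138-fold lower when 3 counts over the group are taken for the 0. Of the chromobox genes, 5 of 11 tested were higher after P and 0 lower. Among them was cbx3a, for a heterochromatin protein HP1 that binds the mark made by SUV39H, at 3.55 (adjusted p = 1.70e-05) after P and 2.95 (adjusted p = 0.00273) after DHP. The partner of EZH2 and SUZ12, eed, was at 1.47 after P (adjusted p = 0.000630), and the EZH2 gene LOC118225181 was at 0.33 (adjusted p = 0.356). The INO80 genes had 0 higher and 3 lower of 6 tested after P, with ino80, ino80b and ino80e called, and 0 called after DHP. Of the lysine acetyltransferase genes outside the rule, 2 of 6 tested were higher and 1 lower after P, and 2 were higher and 0 lower after DHP. The lower gene, kat2b, was at -5.68 after P (adjusted p = 0.000748), with means of 1.53 normalized counts in eggs and 88.9 in oocytes. After DHP it was at -3.02 and not called (adjusted p = 0.0213).

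The changes after P and after DHP rest on separate libraries, so they can be set side by side. Of the 118 members tested in both, 112 had the same sign, and 87 had the smaller change after DHP, with a median absolute log2 fold change of 1.56 after P and 1.19 after DHP. Of the 14591 genes tested in both, 13329 had the same sign and 10578 the smaller change after DHP, with medians of 1.38 and 1.09. Across these members, which are not independent, Pearson's r of the changes was 0.94 and Spearman's rho 0.96, against 0.93 and 0.95 over all these genes. All 24 members called higher after DHP were among the 42 called higher after P, of which they were 57.1%. Over all genes tested, 1099 of the 1114 called higher after DHP, and 873 of the 943 called lower, were called the same way after P. Of the members called lower after DHP, 5 of 6 were called lower after P, which was 33.3% of the 15 lower after P. No member was called in opposite directions. Passing after P only is no test of a difference between the steroids, which is given next. With a group mean of at least 20 normalized counts, the median coefficient of variation of members was 25.2% in eggs after P, 32.6% in oocytes before P, 32.7% in eggs after DHP and 25.2% in oocytes before DHP.

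**Figure D4:**
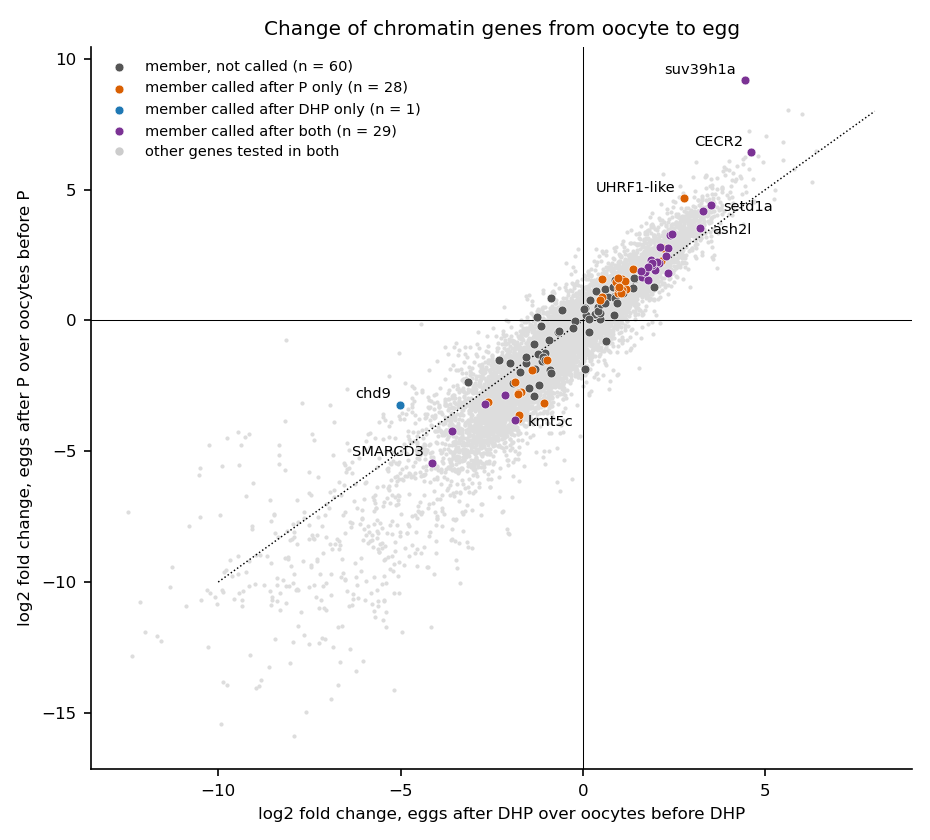
Log2 fold change of eggs over oocytes after DHP, on the horizontal axis, and after P, on the vertical axis, with 118 members in colour by the comparison that called them and the other genes tested in both in grey. The dotted line marks equal changes. Of these members, 112 had the same sign under both steroids, and 87 had the smaller change after DHP. The suv39h1a gene lies far above the line, and chd9 is the 1 member called after DHP only.

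The difference between the steroids was tested in the eggs and in the change from oocyte to egg, and the oocytes of both arms, taken before injection, were compared as a baseline. No member was called in any of these. Between eggs after P and eggs after DHP, 0 of 105 members tested and 0% of the 13178 genes tested passed in edgeR. By DESeq2 0 members and 9 of all genes were called, and by limma-voom 0 members and 0 genes. In edgeR, 5 members had an unadjusted p under 0.05, which was 4.76% of those tested, against 4.57% of all genes. In the edgeR fit of all 12 libraries, 0 of 124 members and 0% of 16891 genes differed between P and DHP in the change from oocyte to egg. Its unadjusted p was under 0.05 for 4 members, or 3.23%, against 4.14% of all genes. DESeq2 called 0 members and 3 of all genes here, and limma-voom 0 members and 0 genes. Between oocytes before DHP and oocytes before P, 0 of 123 members and 0% of 16153 genes differed in edgeR. The unadjusted p was under 0.05 for 0 members, against 3.06% of all genes. DESeq2 called 0 members and 10 of all genes between these oocytes, and limma-voom 0 members and 0 genes.

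The 5 members with the smallest p between eggs, all at an adjusted p of 0.984, were kmt5c, the p300-like LOC118216287, LOC118210545, hdac10 and the demethylase 4C-like LOC118227811. For kmt5c the eggs after P had 107, 85.3 and 57.6 normalized counts and the eggs after DHP 415, 268 and 169. The groups did not overlap, with a log2 fold change of P over DHP of -1.72 ± 0.49 (unadjusted p = 0.00498 in edgeR over 105 members and all other genes, adjusted p = 0.984) and a 95% interval from limma-voom of -2.78 to -0.57. In oocytes kmt5c was at 853, 982 and 1100.4 before DHP and 1035, 1607 and 835 before P, and these groups overlapped. The difference between the steroids in the change of kmt5c was -2.01 ± 0.53 (adjusted p = 1.00). For LOC118216287, whose product is named for the acetyltransferase p300, eggs after P had 109, 69.5 and 60.4 and eggs after DHP 16.7, 35.5 and 27.7, with 1.65 ± 0.58 and an interval of 0.33 to 2.95. Intervals of the other 3 genes were -3.56 to 0.30 for LOC118210545, 0.15 to 1.89 for hdac10 and -0.64 to 3.26 for LOC118227811. These genes were picked for their small p, and none differed after adjustment.

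**Figure D5:**
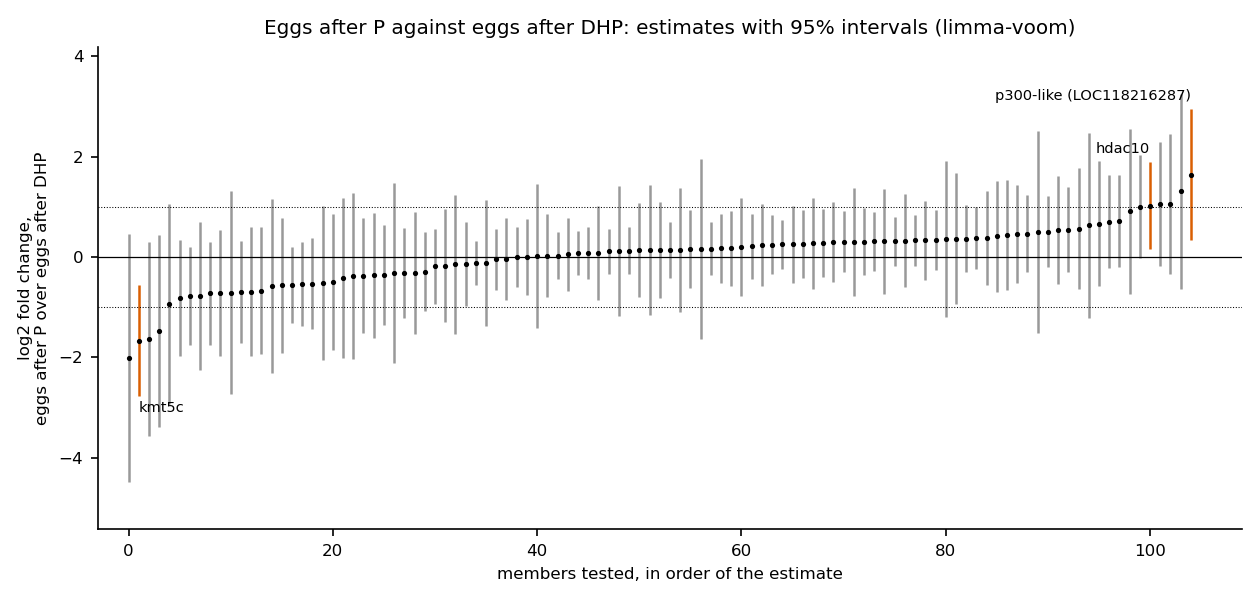
Log2 fold change of eggs after P over eggs after DHP for the 105 members tested, in order of the estimate, with 95% intervals from limma-voom. Dotted lines mark a 2-fold difference in each direction. Intervals in orange, for kmt5c, hdac10 and the p300-like gene, do not hold 0, and 31 intervals lie wholly within the dotted lines.

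For most members the data set a bound on the difference between the steroids. The 95% interval lay within 2-fold in each direction for 31 of 105 members and within 4-fold for 85 of 105, with a median distance from the estimate to either bound of 0.96 on the log2 scale. For the genes with the steepest changes it was -0.98 to 0.70 for suv39h1a, -0.42 to 0.93 for LOC118231133, -0.41 to 0.96 for setd1a, -0.44 to 0.60 for ash2l and -0.31 to 1.39 for LOC118224789. The SMARCD1 genes LOC118211277 and LOC118208282 had -0.44 to 0.50 and -0.57 to 0.32, and smarca4a had -0.34 to 0.57. Members too rare in eggs for this test, such as chd9 and the SMARCD3 genes, give no such bound.

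The change of suv39h1a was steeper after P than after DHP by 4.71 ± 1.27 on the log2 scale (unadjusted p = 0.00235 in edgeR, adjusted p = 1.00), which did not pass. Its eggs averaged 384 ± 119 after P and 433 ± 116 after DHP, while its oocytes held 46.3, 3.08 and 6.73 before DHP and 0.783, 0 and 0.937 before P (mean ± SD, n = 3 each, for eggs). The others of the 5 smallest p in that test were chd1l (-2.13 ± 0.88), LOC118210545 (-2.05 ± 0.90) and the KAT5 gene LOC118236644 (-1.46 ± 0.71), all at an adjusted p of 1.00. Between oocytes before DHP and oocytes before P, the 5 members with the smallest p were LOC118231133 (1.64 ± 0.83), chd4b (-0.44 ± 0.25), smarca1 (0.76 ± 0.44), LOC118216287 (-0.70 ± 0.41) and the SAP30L-like LOC118224068 (0.78 ± 0.50), each at an adjusted p of 0.999. Over the 123 members tested, this difference ran from -1.41 to 1.64, and 120 members were within 2-fold by the estimate. The filter left 8 members untested between the oocytes, among them suv39h1a, so this range does not cover that gene.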

How the data were processed

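The authors deposited fragment counts per gene. They made stranded poly(A) libraries, aligned them to fAngAng1.pri with TopHat 2.0.13, removed secondary alignments with SAMtools 1.2 and counted with HTSeq 0.6.1p1, whose strand setting is not given. The tables also hold the authors' DESeq comparisons, which were not used. Libraries were put into groups by the labels and the names of the tables. Each pair of groups was compared with edgeR 4.0.16 in R 4.3.3 (quasi-likelihood test, TMM scaling, filterByExpr with minimum count 10 and total 15, adjusted p under 0.01), in a fit of 6 libraries, and the difference between the steroids in 1 fit of 12. Log2 fold changes are given ± an approximate SE. It was computed as the absolute log2 fold change divided by the square root of the F statistic of the quasi-likelihood test. A further test was made with DESeq2 1.42.0, and voom of limma 3.58.1 gave the intervals. The programs were tested on simulated data. Oocyte and egg libraries were paired by their order in the tables, since the methods sampled the same females: deviations from group means correlated with r of 0.272 to 0.416 in these pairs and -0.299 to -0.0435 in the others. Replicates are 3 females per steroid.

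Members, role classes and further lists were chosen with earlier results of these data known, and spelling variants of list words were added after the gene names were seen. Genes named are the 4 of the rule, per class up to 3 called members per direction and comparison with the smallest p and a mean of at least 20, the most abundant member of each class, members called under 1 steroid only (up to 6), the 5 smallest p of each other comparison, and paralogs of these. Others were named after their values were seen. Some members that the rule names are counted but not reported by name here. Alternatives were RLE, upper-quartile and total-count scaling, DESeq2, limma-voom, no filter, an adjusted p under 0.05, 1 fit of all libraries, pairing, and each library left out.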

Additional observations from a re-analysis of the deposited data

How the results depend on the processing

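The log2 fold changes of named members were computed in 1530 further combinations of a value and an alternative, of which 11 turned the sign. None of these was of a member called in the comparison. With total counts as the scale the value of LOC118230859 was -0.22 after DHP and -0.50 after P, of chd4b -0.14 and -0.47, of cskmt -0.21 and -0.35, and of LOC118236644 -0.0221 after DHP. LOC118230859 was at -0.43 after DHP without library 4 and at -0.11 and -0.12 after P without library 1 or 6, and cskmt at -0.0426 after DHP without library 8. Over the fits with a library left out, LOC118230859 ran up to 0.69 after DHP and 0.54 after P, and cskmt up to 0.69 after DHP.

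Members higher after DHP numbered 6 with total counts and 0 to 19 with 1 library left out, against 24. Members lower after DHP numbered 10 with total counts, 10 with DESeq2, 16 at an adjusted p under 0.05 and 0 to 3 with 1 library left out, against 6. Members higher after P numbered 22 with total counts and 27 to 36 with 1 library left out, against 42, and members lower after P 30 with total counts, 24 with DESeq2, 29 at an adjusted p under 0.05, 23 with the replicate block and 9 to 11 with 1 library left out, against 15. Over all genes tested, DESeq2 called 26.5% lower after P and 14.6% lower after DHP, against 22.7% and 6.22% with edgeR. The paired fit called 26.6% of all genes lower after P. Shares of all genes at an adjusted p under 0.05 are not given here. The cause of the shifts in member counts was not tested, and a fit without a library also has fewer samples. The other alternatives moved these counts by less than 1.5 times. With the libraries paired, the counts after DHP were 25 higher and 7 lower. For the comparisons between the steroids all alternatives gave 0 members. The filter left 10 to 12 members untested in the comparisons of eggs with oocytes, and with 3 libraries a group, the interval of a typical member between eggs spans nearly 2-fold in each direction.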
